A study of Kluyveromyces marxianus with 6 samples.

Results

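Long intergenic ncRNAs (lincRNAs) of the yeast *Kluyveromyces marxianus* were described here when no transcription unit was kept on the strand opposite to them. Transcription units, called transfrags, had been given an RNA class by the authors, and a lincRNA was chosen when not 1 of its bases lay under a transfrag of any class on the other strand of the same contig. The choice used class and position only. It held for 486 of the 1430 lincRNAs (34.0%), out of 14298 transfrags in all, and these 486 are called non-overlapped lincRNAs. The other 944 lincRNAs shared at least 2 bp with an opposite transfrag, with a median cover of 58.8% of their length, and are called overlapped lincRNAs. The authors had removed the transfrags of lowest level and those that overlapped an RNA gene on either strand. The absence of an opposite transfrag therefore says that none was kept there, not that the strand was silent.

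The RNA came from strain ATCC 36907 (KM7), grown in shaken cultures at 30 °C in a uracil-free yeast nitrogen base medium with 2% dextrose. Cells were taken at an optical density of about 3, 7 and 10, called EE (early), ME (mid) and LE (late) after their place in exponential growth. Each growth phase had 2 biological replicates, sequenced with strand information after depletion of rRNA. The deposited value of a transfrag is its transcriptional level, a normalized read number that is not corrected for length, given as the authors' mean of both libraries of a growth phase. There is therefore 1 value per transfrag and growth phase and no spread between replicates except at low levels, where the reads of both libraries could be recovered. No difference between growth phases was tested and no p-value is given.

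In yeasts, RNA polymerase II also transcribes the DNA between genes. Promoters often start RNA in both directions, so that an ncRNA can begin beside a gene and run away from it, and other ncRNAs begin within or behind genes. Many such RNAs are short-lived, because the nuclear exosome (with its exonuclease Rrp6) or cytoplasmic decay removes them, and transcription through a neighbouring promoter can change the use of that promoter. An ncRNA that lies alone on its stretch of DNA has no transcript on the other strand to collide or pair with there, and its position is described by the genes beside it.

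The low levels showed how many reads stood behind a value. In each growth phase they were sums of whole multiples of 2 steps, 1 step per library, for 99.98% of the low levels in EE and 100% in ME and LE, to the 2 decimals given (11.0%, 28.8% and 27.1% by chance in EE, ME and LE). The steps gave the EE libraries size factors of 0.707 and 0.375, the ME libraries 1.85 and 1.37, and the LE libraries 1.70 and 1.26. A level of 1 thus stood for about 1.08, 3.22 and 2.96 reads over both libraries of EE, ME and LE, and 3 reads in a single library for a level of up to 4.00, 1.09 and 1.19. A level in EE rested on fewer reads than the same level in ME or LE. At or under this level of 3 reads were 111, 39 and 83 of the non-overlapped lincRNAs in EE, ME and LE.

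The same steps divided the low levels of the non-overlapped lincRNAs into the reads of both libraries, for 311, 198 and 246 of them in EE, ME and LE. Reads were present in both libraries for 206, 147 and 165 of these, in a single library for 88, 43 and 64, and in none for 17, 8 and 17. Most of the low lincRNAs were thus seen in both libraries. The squared difference between both libraries was 2.19 times what counting alone gives in EE, 2.49 times in ME and 2.10 times in LE. The same ratio over all transfrags was 2.51, 2.17 and 1.79. A counting error, given below as SE, covers the sampling of reads alone and is therefore too small.

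The median level of the non-overlapped lincRNAs was near that over all transfrags and below those of the overlapped lincRNAs and the mRNAs. In EE their median transcriptional level was 8.32 (quartiles 4.16 and 15.4), in ME it was 6.73 (2.89 and 15.3) and in LE 4.92 (1.76 and 12.2). Over all transfrags the medians were 8.24, 6.79 and 5.03, with higher upper quartiles of 27.6, 45.5 and 45.3. The overlapped lincRNAs had medians of 12.3, 12.6 and 12.7, and the mRNAs of 24.1, 39.8 and 29.4. The order of these 3 classes was the same in each growth phase, with the non-overlapped lincRNAs lowest, while the quartile ranges of the groups overlapped. Per kb of transfrag, the median levels were 26.2, 21.3 and 15.4 for the non-overlapped, 29.5, 29.9 and 30.3 for the overlapped lincRNAs, and 47.3, 66.2 and 47.9 for the mRNAs. Over all transfrags they were 34.8, 24.1 and 17.4, above the non-overlapped lincRNAs in each growth phase. On this scale the 2 groups of lincRNAs lay close together in EE and were farther apart in LE.

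**Figure D1:**
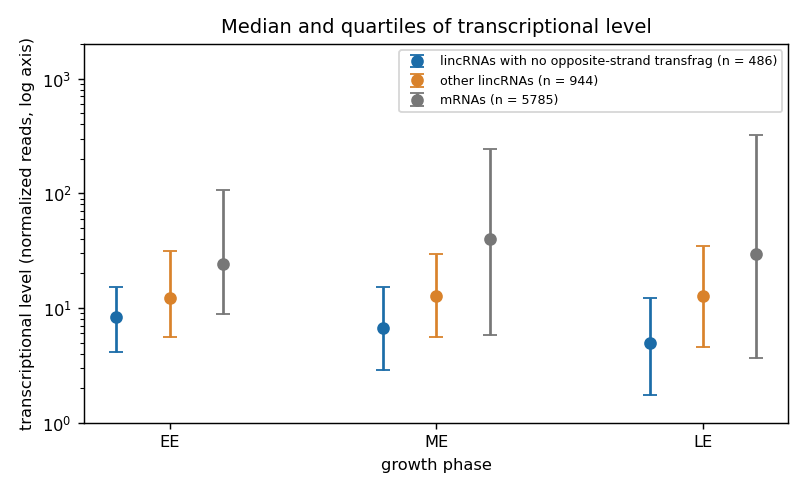
Median (points) and quartiles (bars) of the transcriptional level, in normalized reads on a log axis, for the non-overlapped lincRNAs, the overlapped (other) lincRNAs and the mRNAs in EE, ME and LE. The median of the non-overlapped lincRNAs went from 8.32 in EE to 4.92 in LE, that of the overlapped lincRNAs stayed between 12.3 and 12.7.

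Length belongs to the choice of these lincRNAs, since a longer transfrag has more bases that can be overlapped. The median length was 305 bp (quartiles 240 and 417.5, range 200 to 1775), against 391 bp for the overlapped lincRNAs and 577 bp for the mRNAs. Of the lincRNAs of 200 to 299 bp, 45.7% (231 of 505) had no opposite transfrag. The share was 37.5% (126 of 336) at 300 to 399 bp, 28.2% (88 of 312) at 400 to 599 bp and 14.8% (41 of 277) from 600 bp on. It fell from class to class of length.

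The levels of both groups were compared within classes of length. At 200 to 299 bp the median level in EE was 5.41 for the non-overlapped and 5.41 for the overlapped lincRNAs, and in LE it was 2.57 and 3.64. From 600 bp on it was 32.3 against 51.6 in EE and 28.4 against 47.3 in LE. In LE the non-overlapped lincRNAs were the lower group in each of the 4 classes, in EE in 2 of them. Per kb, the medians in EE were 21.9 and 22.5 at 200 to 299 bp and 42.4 and 57.0 from 600 bp on, so that longer lincRNAs also had more reads per base in both groups.

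**Figure D2:**
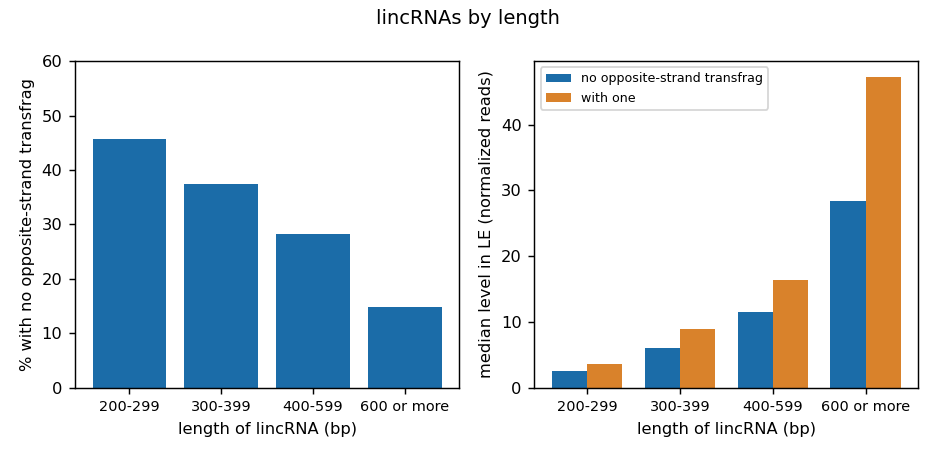
Left, the percentage of lincRNAs with no opposite-strand transfrag in 4 classes of length in bp, falling from 45.7% to 14.8%. Right, the median level in LE, in normalized reads, of the lincRNAs with none and of those with one, where the former bar is the lower in each class.

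A few transfrags held most of the RNA of the group. The non-overlapped lincRNAs held 0.44%, 0.739% and 0.437% of the summed level of all transfrags from EE to LE. A single one, transfrag00136, held 52.1%, 51.3% and 50.0% of the summed level of the group, and the 10 highest of a growth phase held 66.9%, 77.8% and 73.7%. A level of at least 100 was reached by 9, 11 and 16 of the 486. Sums over the group therefore describe these few, and medians and counts are used for the rest.

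Of the 11 lincRNAs with the highest mean level, 7 lay on contigs that hold no mRNA transfrag. Such contigs were short pieces of the assembly, 18 in number, with 25 of the non-overlapped lincRNAs and 7 of the overlapped ones. The 7 were singled out after their values were seen, except transfrag00131 and transfrag00135, which were also among the largest rises. The highest, transfrag00136 (contig 72, bases 1896 to 2264, minus strand), stood at 9342, 12903 and 10151 in the 3 growth phases, without a 2-fold change. On the other strand of the same contig, transfrag00135 (bases 944 to 1444) had 9.66, 270 and 329, with 8 and 3 reads in the libraries of EE.

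The other high ones on such contigs were also lower in EE in most cases. The level of transfrag00131 (contig 71, bases 600 to 900, plus strand) was 23.7 in EE, then 3850 and 2200 in ME and LE, a log2 change in LE against EE of 6.48 (SE 0.29 from counting). It was the largest rise of all non-overlapped lincRNAs. On contig 45, transfrag00086 (bases 1134 to 1954) had 35.3, 919.9 and 668, and on contig 4, transfrag00003 had 52.1, 386 and 262. On contig 42, transfrag00076 had 80.6, 325 and 376, whereas transfrag00001 on contig 1 had 161, 236 and 127 and did not reach 2-fold. No gene name is given for these contigs in the tables used here. Of the 25 lincRNAs on contigs without an mRNA, 7 (28%) gained and 10 (40%) lost 2-fold or more from EE to LE, near the 27% and 42.7% of all transfrags that did.

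Changes between growth phases were measured as the difference in log2(level + 1), where 1 is 2-fold, and the added 1 understates the change of low levels. A rise or a fall means a difference of at least 2-fold between the deposited means, with no test. Levels fell more often than they rose after EE, as over all transfrags, but in ME against EE not where the mean level was at least 10. This mean is taken over the same EE, ME and LE levels as the changes. A lincRNA can thus pass through the growth phase where it is high, so that filter and change are not independent. With a mean level of at least 10 over the growth phases, 47 lincRNAs were higher and 34 lower in ME against EE, and of all such transfrags 44.4% and 20.4% were. In LE against EE, 53 of these lincRNAs were higher and 55 lower, where 47.6% and 22.7% of all such transfrags were. In ME against EE, 105 non-overlapped lincRNAs (21.6%) rose at least 2-fold and 156 (32.1%) fell as much, where 26.7% and 36.9% of all transfrags were. In LE against EE, 102 (21.0%) were higher and 208 (42.8%) lower, where 27% and 42.7% of all transfrags were. The shares of lower lincRNAs were near the background, and the shares of higher ones were below it. The median log2 change was -0.30 in ME against EE and -0.62 in LE against EE, and over all transfrags it was -0.40 and -0.62.

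The sign of the median changes depended on the scaling between growth phases in 1 of 3 other scalings tried. With levels scaled by the mapped reads of each library, the median change over all transfrags moved to 0.76 in ME and 0.00 in LE against EE, and that of the non-overlapped lincRNAs to 0.85 and 0.021. Of the lincRNAs past 2-fold, 77.9% were then higher in ME against EE, compared with 40.2% on the deposited scale, and of all transfrags past 2-fold 71.9% and 42.0%. In LE against EE the percentages were 50.5% and 32.9% for the lincRNAs and 52.8% and 38.7% for all transfrags. Scaled by the summed level, with all transfrags or without the 100 highest, the median of the lincRNAs stayed negative, at -0.066 and -0.45 in ME against EE and at -0.76 and -1.09 in LE against EE. With all transfrags, the lincRNAs no longer fell more often than they rose in ME against EE, with 123 higher and 121 lower. Of those past 2-fold, 50.4% of the lincRNAs and 48.2% of all transfrags were then higher in ME against EE. Without the 100 highest, 21.2% and 28.4% were in LE against EE. On the deposited scale and by mapped reads the lincRNAs lay within about 0.1 of the median transfrag, as the given medians show.

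From ME to LE the non-overlapped lincRNAs stood lower than the average transfrag. At least 2-fold lower in LE than in ME were 106 (21.8%), where 14.8% of all transfrags and 10.2% of the overlapped lincRNAs were, and 37 (7.61%) were higher, where 5.22% of all transfrags were. The median log2 change was -0.24, against -0.014 over all transfrags and 0.087 for the overlapped lincRNAs. ME and LE rested on similar numbers of reads per level, unlike EE. With levels scaled by mapped reads the medians were -0.74 for the lincRNAs and -0.49 for all transfrags, and 10.1% of the lincRNAs past 2-fold were higher, compared with 25.9% on the deposited scale. Over all transfrags these percentages were 9.72% and 26.2%, near those of the lincRNAs. By the summed level the medians were -0.59 and -0.38, with 9.34% of the changed lincRNAs and 7.59% of the changed transfrags higher, and without the 100 highest -0.54 and -0.31, with 10.4% and 6.63% higher.

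The level of a transfrag also went with its change, and the comparison was repeated within classes of mean level over the 3 growth phases. These classes rest on the same levels as the changes, so that class and change are not independent. In LE against ME, the share at least 2-fold lower was 25.4% of the non-overlapped lincRNAs with a mean level under 5, and 17.4% of all such transfrags. It was 24.2% against 22.0% at a mean level of 5 to 10, and 16.4% (29 of 177) against 9.97% from 10 on, where 4.20% of the overlapped lincRNAs were lower. In each class the non-overlapped lincRNAs had the highest share of the 3 groups. In LE against EE, from a mean level of 10 on, 29.9% were higher and 31.1% lower, where 47.6% and 22.7% of all transfrags and 27.1% and 27.8% of the overlapped lincRNAs were. Both groups of lincRNAs of this class thus had fewer rises and more falls than transfrags of such a level in general. None of these differences was tested.

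EE was the growth phase of highest level for 264 of the 486 (54.3%), ME for 118 (24.3%) and LE for 104 (21.4%). Over all transfrags the percentages were 53.0%, 19.6% and 27.4%. Relative to EE, 132 lincRNAs (27.2%) were at least 2-fold lower in both ME and LE and 76 (15.6%) higher in both, where 32.1% and 22.6% of all transfrags were. A further 75 (15.4%) were lower in LE alone, where 10.4% of all transfrags were, 24 lower in ME alone (4.94%, against 4.76%), 26 higher in LE alone (5.35%, against 4.29%) and 28 higher in ME alone (5.76%, against 3.89%). A single lincRNA was higher in 1 and lower in the other, which 0.252% of all transfrags were. ME and LE share the EE values in this count. A level of at least 10 in every growth phase was reached by 91 (18.7%, against 31.4% of all transfrags), of which 38 (7.82% of the group, against 8.29%) were within 2-fold of EE in both ME and LE.

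Where the levels of both phases could be divided, the libraries themselves could be compared. Levels were divided up to 12 in EE but only up to 5 in ME and LE, so that a lincRNA that rose from EE seldom entered (14 of 102 rises in LE, against 104 of 208 falls), and the shares above and below cannot be set against each other. In LE against EE this held for 188 non-overlapped lincRNAs, of which 78 (41.5%) had both LE libraries below both EE libraries, and 11 (5.85%) had both above, where 42.4% and 5.88% of all transfrags divided in this way did. Of the 104 lincRNAs at least 2-fold lower among them, 73 had libraries that did not overlap, and of 14 higher, 11 had such libraries. Over all transfrags divided in this way, 2459 of 4045 lower and 324 of 389 higher ones had such libraries. In ME against EE, 56 of 159 (35.2%) lay below and 14 (8.81%) above, where 37.6% and 6.47% of all transfrags did. In LE against ME, 37 of 174 (21.3%) lay below and 18 (10.3%) above, where 17.9% and 8.6% did. The same limits held for all transfrags, and not every 2-fold fall at low level was free of overlap between libraries.

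The reads show how such low lincRNAs looked, and 3 in each direction, chosen after their values were seen, are given as the largest differences that did not overlap. In transfrag06769 the EE libraries had levels of 2.83 and 18.7 and both LE libraries had 0. In transfrag07573 they had 4.24 and 16.0, and in transfrag17163 5.66 and 13.3, again with 0 in LE. Taken as the mean of EE against the level of 3 reads in LE, these were at least 9.02-fold, 8.49-fold and 7.97-fold lower. For transfrag06769, 1 EE library lay below the level of 3 reads in EE, 4.00, so that its fold rests mostly on the other library. In the other direction, both EE libraries of transfrag09074 had 0 and the LE libraries 5.88 and 3.97. The LE libraries of transfrag08651 had 0.588 and 8.74 and those of transfrag00008 2.94 and 5.56, also after 0 in EE. In each of these 3, 1 LE library lay below the level of 3 reads in EE, 4.00, so that no fold is given for them. When every fold was taken against at least the level of 3 reads, 79 lincRNAs (16.3%) were 2-fold higher and 203 (41.8%) lower in LE against EE, where 23.2% and 38.4% of all transfrags were.

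**Figure D3:**
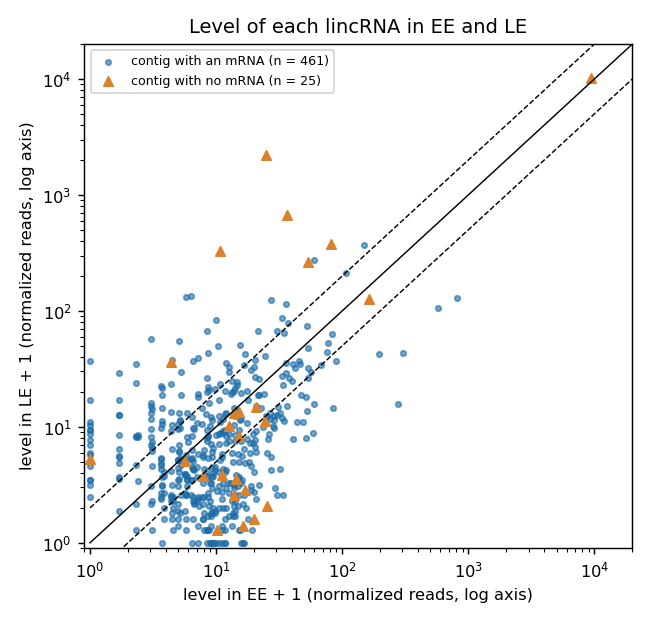
Level of each of the 486 non-overlapped lincRNAs in EE and LE, in normalized reads plus 1 on log axes, with equal levels on the solid line and 2-fold changes on the dashed lines. The 102 lincRNAs that were higher lie above the upper dashed line and the 208 lower ones below the lower one, and triangles mark the 25 on contigs with no mRNA.

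Where the lincRNAs lay was measured against the nearest mRNA transfrag of the same contig, which 461 of the 486 had. In 190 (41.2%, 95% interval from counting of 36.7% to 45.9%, Clopper-Pearson) this mRNA lay downstream on the same strand, so that the lincRNA ended before the mRNA began. In 66 (14.3%, 11.2% to 17.9%) it lay upstream on the same strand, with the lincRNA behind its 3′ end. In 124 (26.9%, 22.9% to 31.2%) lincRNA and mRNA were divergent, pointing away from each other, and in 81 (17.6%, 14.2% to 21.4%) convergent. The order was downstream, divergent, convergent, upstream, and the intervals of the last 2 overlapped. Neighbouring lincRNAs can share an mRNA, as 109 of them did with 49 mRNAs and up to 5 lincRNAs for 1 mRNA, so that these intervals are too narrow.

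The overlapped lincRNAs had a similar order, with 37.1% downstream, 12.2% upstream, 33.8% divergent and 16.9% convergent of 937. The rule sets part of this contrast, because an mRNA overlapping from the other strand is a divergent or convergent neighbour and removes a lincRNA from the group, as 170 of the 937 had it. The 2 groups were therefore not compared further on this measure.

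The gap to the nearest mRNA had a median of 370 bp, with quartiles of 164 and 869 bp. It was 281.5 bp for an mRNA downstream, 301.5 bp upstream, 546.5 bp for divergent and 394 bp for convergent neighbours. Divergent neighbours were thus the most distant. Of the 461 gaps, 1 was of 1 bp or less, 11 of 2 to 40 bp, 39 of up to 100 bp, 216 of up to 500 bp, 98 of up to 1000 bp and 96 longer. Same-strand gaps began at 43 bp, and the authors had merged same-strand transfrags closer than 40 bp and, when their profiles were alike, up to 100 bp apart. A lincRNA that ran on from an mRNA with no larger break is therefore not in this group.

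**Figure D4:**
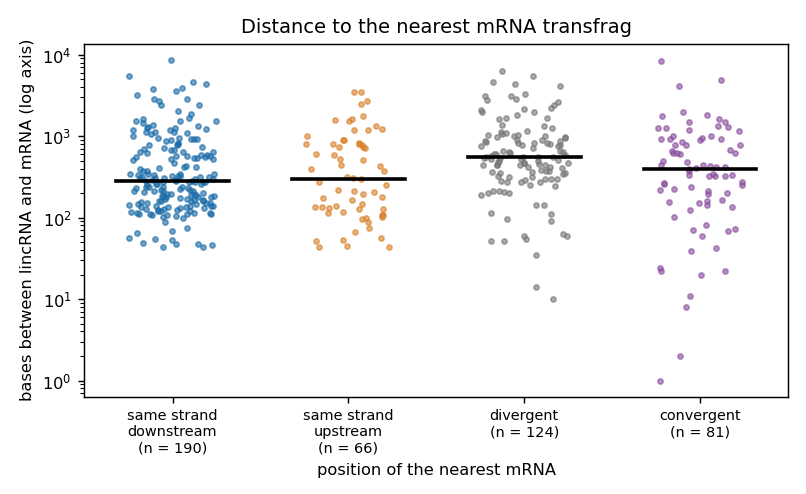
Bases between each lincRNA and its nearest mRNA transfrag, on a log axis, by the position of that mRNA, 1 point per lincRNA with the median as a line. No same-strand gap is shorter than 43 bp, and the median of the divergent pairs, 546.5 bp, is the highest of the 4.

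The nearest mRNA describes 1 side only, and 440 of the lincRNAs had an mRNA on both. Between mRNAs that point away from each other lay 203 of these (46.1%), between mRNAs that point the same way 196 (44.5%), and between mRNAs that point toward each other 41 (9.32%). Of the bases in spaces of at least 200 bp between mRNA transfrags, divergent spaces held 29.6%, tandem spaces 54.2% and convergent spaces 16.2%. Per 100 kb, this is 11.8 non-overlapped lincRNAs in divergent, 6.21 in tandem and 4.35 in convergent spaces. As counted, the density was highest in the divergent spaces. These spaces lie between mRNA transfrags, not between genes. A gene can hold more than 1 mRNA transfrag, and a space inside such a gene counts as tandem but can hold no lincRNA. This lowers the tandem density by an amount that was not worked out. Genes with no mRNA transfrag can also lie in a space. In the tandem spaces, 96 lincRNAs lay on the strand of the mRNAs and 100 on the other strand. The overlapped lincRNAs were spread alike, with 51.6% in divergent spaces.

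The levels were also set out by the kind of space. From EE to LE the median level of the lincRNAs in divergent spaces was 8.16, 7.05 and 6.03, and in convergent spaces 8.40, 5.59 and 2.75. In tandem spaces it was 7.62, 5.26 and 3.46 on the strand of the mRNAs and 8.36, 8.13 and 6.08 on the other strand. The medians in LE were thus higher where the upstream mRNA lay on the other strand. By the nearest mRNA, the lincRNAs behind an mRNA of the same strand had the lowest median in LE, 2.72, after 7.62 in EE, with 34 of 66 (51.5%) at least 2-fold lower and 8 (12.1%) higher. Before an mRNA of the same strand, 90 of 190 (47.4%) were lower and 39 (20.5%) higher. Of the divergent ones 43 of 124 (34.7%) were lower and 32 (25.8%) higher, and of the convergent ones 31 of 81 (38.3%) and 16 (19.8%). Against the 42.7% of all transfrags that were lower, the classes lay on both sides. The share of higher ones was in each class below the 27.0% of all transfrags. The differences between them were not tested.

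Other transfrags surrounded the lincRNAs too. On the same strand the nearest transfrag was an mRNA for 193, another lincRNA for 94, a short intergenic ncRNA for 75, a long antisense ncRNA for 74 and a short antisense ncRNA for 37, and 13 had none on their contig. On the opposite strand the nearest transfrag of any class began at a median distance of 316.5 bp, with quartiles of 126 and 613 bp. It lay within 100 bp for 106 lincRNAs and beyond 1000 bp for 60, and 12 had none on the contig. The lincRNAs were on 37 of the 81 contigs that hold transfrags, 223 on the plus and 263 on the minus strand.

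At the limit of the rule the opposite transfrag was a single base away. The nearest lincRNAs inside it were transfrag29792 (36.4 in EE, 62.8 in ME, 78.0 in LE) and transfrag31850 (8.40, 7.98, 5.60), both with a gap of 1 bp. Just outside were transfrag07569, overlapped by 2 bp (1.33, 3.71, 4.84), and transfrag03680, overlapped by 3 bp (6.36, 5.25, 13.2). Their levels fell within the range of the group on both sides of the limit.

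No non-overlapped lincRNA overlapped any of the 273 RNA genes that the study lists. The authors' processing had set this, since it removed transfrags that overlapped such a gene on either strand. Within 200 bp of such a gene lay 15 of them, next to 12 tRNA genes and 4 others. The others were matches to snR39, snR65, snR37 and snR34, snoRNAs that guide chemical changes of rRNA. Only 3 of the 15 had an RNA gene on their own strand. Behind snR39, transfrag05948 had a level of 14.4 in EE and of 0 and 0.29 afterwards. Before a pair of tRNA genes, transfrag15299 had 10.9, 6.09 and 1.97, and before another tRNA gene transfrag16773 had 2.83, 0.27 and 3.06.

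The lincRNAs with an mRNA nearby were then described by name, beginning with those that end before an mRNA of the same strand. The highest of these was transfrag19387 (contig 110, bases 872529 to 874134, minus strand), which at 1606 bp was also the second longest of all. From EE to LE its levels were 147, 292 and 366, lowest in EE, a log2 change in LE against EE of 1.31 (SE 0.13). The mRNA 102 bp downstream of it had 461, 2381 and 2981 and thus rose in the same phases.

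Of the others of this class, transfrag22167, transfrag25933 and transfrag16215 did not follow their mRNA. The level of transfrag22167 was 58.4, 266 and 275 in EE, ME and LE, and that of the mRNA 46 bp downstream 1516, 633 and 909.5, highest in EE. For transfrag25933 the levels were 107, 103 and 211. The nearest mRNA transfrag, a short one of 283 bp at 646 bp, had 9.66, 4.63 and 2.07. The fall of transfrag16215 was the largest of the group where the mean over the growth phases was at least 10. It had 274, 54.3 and 14.7, a log2 change in LE of -4.13 (SE 0.23), and the mRNA 1006 bp downstream had 351, 808.5 and 731.6. A tRNA gene on the other strand lay 104 bp past its 3′ end.

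Downstream of a gene whose closest homolog is RRP6, the exonuclease of the nuclear exosome, lay transfrag07680 (contig 104, bases 92693 to 93793, plus strand). The next gene on the same strand is a homolog of RIT1, which modifies the initiator tRNA of methionine. In EE the lincRNA had a level of 302, followed by 82.2 and 42.0, and its log2 change in LE was -2.82 (SE 0.15). The nearest mRNA transfrag, 335 bp downstream, had 9.11, 1.45 and 2.37, a log2 change in LE of -1.58, so that both were lower after EE. This mRNA transfrag was a piece of 260 bp at the start of the RIT1 homolog, beside a lincRNA of 1101 bp. Since levels are not corrected for length, it does not give the level of the whole gene. A tRNA gene on the other strand lay 13 bp past the 3′ end of the lincRNA.

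Of the lincRNAs behind an mRNA of the same strand, transfrag26782 (contig 114, bases 419157 to 419609, plus strand) was the highest. Its EE libraries had 3 and 2 reads, a level of 4.79, followed by 82.7 in ME and 131 in LE, a log2 change in LE of 4.51 (SE 0.56). The mRNA 75 bp upstream went from 415 to 3318 and 3794, so that both rose, the lincRNA from a level of few reads. In transfrag19012 the levels were 32.9, 49.7 and 21.8, while the mRNA 131 bp upstream had 23.9, 488 and 590, so that only the mRNA rose 2-fold.

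The others of this class are given with the closest homologs of the genes beside them. Between 2 genes with PDR12 as the closest homolog, an exporter of weak acids, lay transfrag01064 with 9.42, 33.6 and 49.1. Both genes are on its strand, with gaps of 1172 bp on the upstream and 93 bp on the downstream side. No mRNA transfrag lay on the downstream side. The nearest mRNA transfrag, a piece of 116 bp lying 1215 bp upstream, had 4.08, 1.00 and 0.29. The level of transfrag03110 was 58.6, 14.7 and 14.6, between a homolog of KTR1, a mannosyltransferase, and a gene with RNY_BACHK as the closest homolog, whose mRNA 45 bp upstream had 78.0, 81.3 and 125. Between a homolog of VAN1, a subunit of the Golgi mannan polymerase, and a gene with CTSD_ARTOC as the closest homolog, transfrag08603 had 29.5, 7.89 and 1.57, and the mRNA 56 bp upstream 184, 185 and 513. The latter 2 lincRNAs were lower in ME and LE while their mRNAs were not.

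Among the divergent lincRNAs, transfrag05638 (contig 103, bases 165860 to 166834, minus strand) was the highest and the highest of all on a contig with an mRNA. It pointed away from a homolog of the yeast acetaldehyde dehydrogenase Ald6 (ALDH6_YEAST), the enzyme that makes acetate on the way to cytosolic acetyl-CoA. From a level of 812 in EE the lincRNA went to 108 in ME and 128 in LE, a log2 change in LE of -2.65 (SE 0.09). That of the mRNA, beginning 464 bp away, was 54.5, 796 and 1141, a log2 change of 4.36. The lincRNA was the higher of the 2 in EE and the mRNA in ME and LE.

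A second non-overlapped lincRNA lay in the same space. On the same strand, 190 bp farther on, transfrag05636 (bases 164862 to 165669) had 81.9, 42.4 and 62.3 and did not reach 2-fold. Its nearest mRNA, convergent at 224 bp, belongs to a gene with CS111_KLULA as the closest homolog and had 38.5, 293 and 434. Both lincRNAs of this space had their highest level in EE and both mRNAs in LE.

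The other high divergent lincRNAs had neighbours of very unequal level. These levels are not corrected for length, and some of the mRNA transfrags were short. For transfrag24630 (828 bp) the levels were 577, 85.7 and 104 from EE to LE. Its mRNA transfrag at 295 bp, only 201 bp long, had 2.12, 5.97 and 1.76. For transfrag20983 (995 bp) the levels were 32.3, 82.7 and 85.9, with an mRNA transfrag of 3867 bp at 869 bp that had 4681, 2937 and 4189. The space of transfrag07550 lies between homologs of FLO5, a flocculin of the cell wall, and UGA4, a permease for gamma-aminobutyrate. It had 34.8, 47.0 and 115. The mRNA transfrag on the side of FLO5, a piece of 160 bp lying 1965 bp away, had 11.2, 0.36 and 0.29. The fall of transfrag13529 was the second largest where the mean over the growth phases was at least 10, from 33.1 to 3.08 and 1.59, beside an mRNA of 4973, 4005 and 5610.

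The convergent lincRNAs ran toward an mRNA of the other strand. The highest was transfrag29006, at 195 in EE and at 41.6 and 41.5 afterwards, whose mRNA at 421 bp had 13.0, 44.8 and 53.3. For transfrag15377 the levels were 75.4, 69.7 and 52.2, and a match to snR65 lay on the other strand 65 bp past its 3′ end. The longest of all, transfrag00566 (1775 bp), had 75.3, 70.8 and 42.8 between 2 homologs of ARN2, a transporter of iron-bound siderophores. The last 2 stayed within 2-fold.

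The rise of transfrag30964 began without a read. Both EE libraries had 0 reads, and the levels in ME and LE were 19.8 and 35.9, at least 8.98-fold higher in LE when taken against the level of 3 reads. An opposite mRNA at 22 bp had 13.0, 40.4 and 16.8 and did not reach 2-fold in LE against EE.

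The most distant lincRNAs had no common pattern. The farthest was transfrag21045, 8589 bp before the next mRNA, with 3.37, 3.34 and 3.18. Its reads were uneven between libraries, 11 and 1 in ME and 0 and 8 in LE. At 8383 bp, transfrag16303 had 17.0, 2.62 and 0.59, and it began at base 19 of its contig. Over all lincRNAs beyond 1000 bp the median level was 7.85 in EE and 6.75 in LE, and between 100 and 500 bp it was 8.75 and 4.94, so that distance alone did not order the levels.

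The level of a lincRNA was only weakly related to that of its nearest mRNA. Across pairs, Spearman's coefficient of the levels in LE was 0.10 for mRNAs downstream (n = 190), 0.23 upstream (n = 66), 0.035 for divergent (n = 124) and -0.034 for convergent neighbours (n = 81). Of the changes in LE against EE it was 0.045, 0.19, 0.11 and -0.19. These coefficients describe pairs that come from the same libraries, share the EE values and in part share an mRNA. All pairs of level or change gave values between -0.19 and 0.23 in the 4 classes. At gaps of up to 100 bp the coefficient in LE was 0.33 on the same strand (n = 25) and 0.27 on opposite strands (n = 26), few pairs in both cases. For these pairs it was -0.0069 and 0.058 for the levels in EE, and 0.24 and 0.27 in ME. For the changes it was 0.19 and 0.24 in ME against EE, 0.11 and 0.12 in LE against EE, and -0.0046 and -0.055 in LE against ME.

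The counts of paired changes gave the same picture. Of the 95 lincRNAs with an mRNA with a 2-fold or larger rise from EE to LE, the mRNA was also higher in 41 and lower in 23. Of the 198 lower ones, the mRNA was lower in 61 and higher in 77. Over all 461 pairs, 190 mRNAs were higher and 137 lower. A fall of the lincRNA beside a rise of the mRNA, as at the Ald6 homolog, was thus the more frequent of the 2 outcomes among the falls, while mRNAs near these lincRNAs rose more often than they fell in any case.

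**Figure D5:**
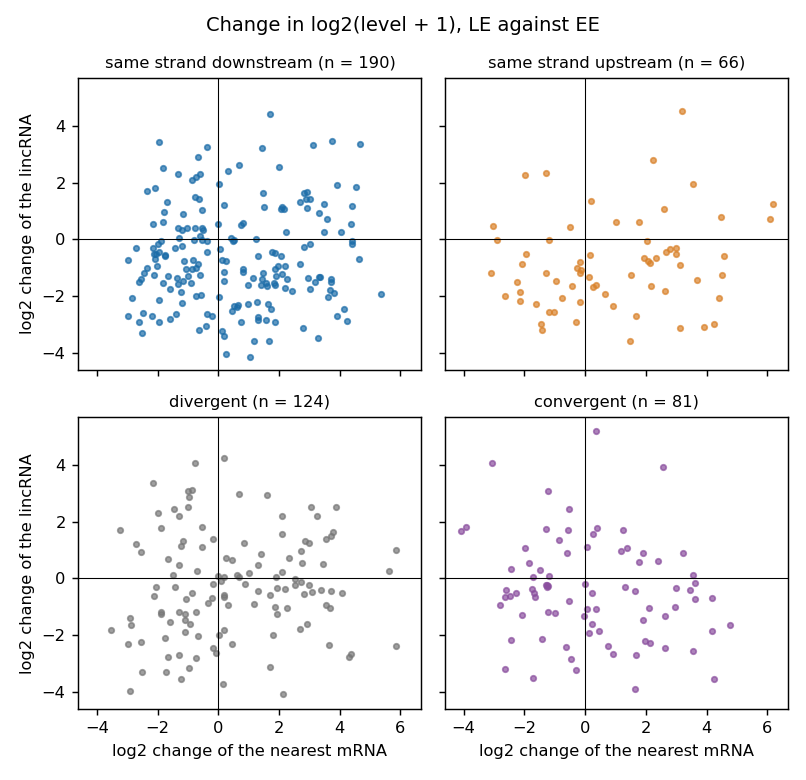
Change of each lincRNA (vertical) and of its nearest mRNA (horizontal) in log2(level + 1), LE against EE, 1 point per lincRNA, in 4 panels by the position of the mRNA. The points lie in every corner of each panel, with Spearman's coefficients of 0.045 (same strand downstream), 0.19 (same strand upstream), 0.11 (divergent) and -0.19 (convergent).

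The mRNA was mostly the higher partner. Its median level was 40.0, 115 and 125 from EE to LE, and the lincRNA stood above it in 91, 84 and 89 of the 461 pairs, or per kb in 114, 89 and 98. Of the 81 convergent pairs in LE, the lincRNA was above its mRNA in 26 (32.1%), and of the 66 pairs with the mRNA upstream in 9 (13.6%). Within 100 bp on the same strand it was above in 2, 1 and 1 of 25 pairs, where the mRNAs had medians of 254, 553 and 909.5.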

How the data were processed

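The 6 libraries were grouped by growth phase from their labels. The authors mapped strand-specific reads, sequenced after rRNA depletion, to the assembly contigs with CLC genomics workbench, placed non-specific matches at random, joined reads of all growth phases into transfrags, classed these and removed those of lowest level. The value the authors deposited is a normalized read signal, which they scaled by DESeq size factors, averaged over 2 libraries and rounded to 2 decimals. Base calling used CASAVA 1.4 per the submitters' processing notes.

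Members were found from class, strand and position. Members and lists were chosen with earlier results of these data known. The nearest mRNA transfrag was taken by the bases between both, and relations followed strand. Named were the 4 highest members per relation, the 3 largest rises and falls in LE against EE (mean level of at least 10, same direction in ME), the 2 farthest from an mRNA, the 2 longest and up to 2 on each side of the overlap limit, others being said to be chosen after their values were seen. Homologs came from the study's gene table, of which 1998 entries were held, and RNA genes from its list. Changes were log2(level + 1) with a limit of 2-fold. The step search was tested on simulated data. Alternatives were other pseudocounts (0.5, 4), scalings, filters, overlap limits and neighbours. Python 3.11.15, NumPy 2.4.6, pandas 2.3.3, SciPy 1.17.1 and Matplotlib 3.10.9 were used. Sequences were not analysed here.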

Additional observations from a re-analysis of the deposited data

How the results depend on the processing

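No paired analysis was possible because each growth phase is 1 mean of 2 libraries and carries no replicate numbers, and fits without single replicates could not be made for the same reason. When cover of at least 10% was needed to remove a lincRNA, 536 were left, and 380 were when an opposite transfrag within 100 bp removed it. With a pseudocount of 4, 66 lincRNAs were higher and 99 lower in ME against EE, and 13 higher and 43 lower in LE against ME. The shares of all transfrags at this pseudocount were not worked out, so these counts have no background. With a mean level of at least 10, a filter on the same levels as the changes, 177 lincRNAs were left. Of these, 47 were higher and 34 lower in ME against EE, 53 and 55 in LE against EE, and 13 and 29 in LE against ME. Rises outnumbered falls in ME against EE, and the median levels were 19.2, 20.0 and 18.3 in EE, ME and LE. Scaled by the summed level, 17 were higher and 165 lower in LE against ME, and 17 were higher without the 100 highest transfrags. Scaled by mapped reads, 229 (47.1%) were higher and 65 (13.4%) lower in ME against EE, where 45.4% and 17.8% of all transfrags were. In LE against ME, 22 (4.53%) were higher and 195 (40.1%) lower, where 3.29% and 30.5% of all transfrags were. Per kb, the median levels were 26.2, 21.3 and 15.4. Spearman's coefficient in LE was -0.033 for mRNAs downstream (n = 63) and 0.075 upstream (n = 17) at a mean level of at least 10. Beyond the filter's smaller number of lincRNAs and the scaling itself, the cause was not tested. The other 93 values of counts, medians, shares and coefficients stayed within the limits set (1.5 times for counts, the interval of a median or share, 0.1 for a coefficient). For named lincRNAs the limit was the counting SE of the change. Of their 140 values, 69 moved, 71 did not and none past 2-fold changed sign. No SE was computed for transfrag07569 and transfrag03680, just outside the overlap limit, so all their values were counted as moved whatever their size. Leaving out contigs with no mRNA, requiring a level above 3 reads and taking folds against 3 reads were chosen after seeing the data and kept all counts within 1.5 times. In EE, 3 reads make a level of 4.00, which limits rises from low levels.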
